A study of Mus musculus with 6 samples.

Results

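The genes described here are 9 genes of hemoglobin and of red cell formation, out of 48440 genes counted. They are the adult beta-globin genes Hbb-bs and Hbb-bt, the adult alpha-globin genes Hba-a1 and Hba-a2, and Alas2, Slc4a1, Epor, Klf1 and Gata1. They were selected on their read counts in the same 6 libraries, with earlier results of these data known, so their values are given as a description and no test of them is reported.

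RNA was sequenced from murine subcutaneous tissue around BEC (BMSCs-engineered cartilage) at 12 weeks after implantation, with 3 samples from each of the 0%-Axitinib and 3%-Axitinib groups. BEC had been made from BMSCs of New Zealand white rabbits, seeded on PLGA scaffolds and kept in chondrogenic medium, and was wrapped in an electrospun PCL/collagen membrane that held no axitinib (0%) or axitinib at 3% of the weight of PCL and collagen. Axitinib is an inhibitor of VEGF receptors. The hosts of both groups were BALB/c nude mice, bought as males 6 to 8 weeks old, which lack a thymus and most T cells but still form red cells, granulocytes and B cells. The labels call the 0%-Axitinib samples untreated, and they were read as BEC in a membrane without the drug, although the study also had a control that lacked the membrane. A pair of constructs of the same group went into each mouse and the mouse of each sample is not named, so n counts samples and p-values measure only the spread between these samples.

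Hemoglobin is built from alpha-globin and beta-globin chains and heme. Precursors of red cells in bone marrow carry the erythropoietin receptor, switch on the transcription factors GATA1 and KLF1, make heme through ALAS2, and place the anion exchanger band 3 (Slc4a1) in their membrane. They then lose their nucleus, and the young red cells that enter the blood still hold globin mRNA while the mRNA of the early regulators is largely gone. A tissue with blood vessels therefore contains some globin mRNA, whereas RNA of Gata1 and Klf1 is known from sites where red cells are made.

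The number of reads on genes lay between 9225518 and 18403795 per library. A count of 3, used as the limit of detection, was 0.325 CPM (counts per 1000000 counted reads) in the sample of lowest depth and 0.163 CPM in the one of highest depth. Intervals and this limit cover counting error only, since reads are not independent molecules. Expression is given below as CPM scaled with the TMM method, unless counts are named.

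For the genes described here, 0%-Axitinib replicate 3 stood apart. Other libraries were the highest in bone and muscle genes when summed, as given below. Replicate 3 of the 0%-Axitinib group had the highest CPM of the 6 samples in 28.3% of the 15257 tested genes (4320 genes). In 119 tested genes, or 0.78%, it was at least 10 times above the next sample. Of these 119 genes, 29 were in the members or lists described here, among them 5 of the 6 members that were tested, 7 genes of marrow granulocyte precursors and 5 genes of neutrophils. Log2 fold changes are therefore given with all samples and without this library.

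Hemoglobin mRNA was present in all 6 libraries and was far more abundant in 0%-Axitinib replicate 3 than in the other 5. The 4 globin genes together took 0.0468% of the counted reads in 0%-Axitinib replicate 1 (exact 95% binomial interval 0.0458% to 0.0479%) and 0.0393% in replicate 2 (0.0384% to 0.0403%). In replicate 3 they took 2.24% (2.23% to 2.24%), which was 402792 reads. In the 3%-Axitinib group the share was 0.0164% in replicate 1 (0.0156% to 0.0173%), 0.0351% in replicate 2 (0.034% to 0.0362%) and 0.0493% in replicate 3 (0.0483% to 0.0503%). Apart from 0%-Axitinib replicate 3, the samples of the groups were intermixed: 3%-Axitinib replicate 3 had the highest share of the other 5 and 3%-Axitinib replicate 1 the lowest. The log2 ratio of the group means of summed hemoglobin CPM, 3%-Axitinib to 0%-Axitinib, was -4.41 with all samples and -0.20 without 0%-Axitinib replicate 3. Fewer cells with globin mRNA and less globin mRNA per cell cannot be told apart in these bulk libraries.

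**Figure D1:**
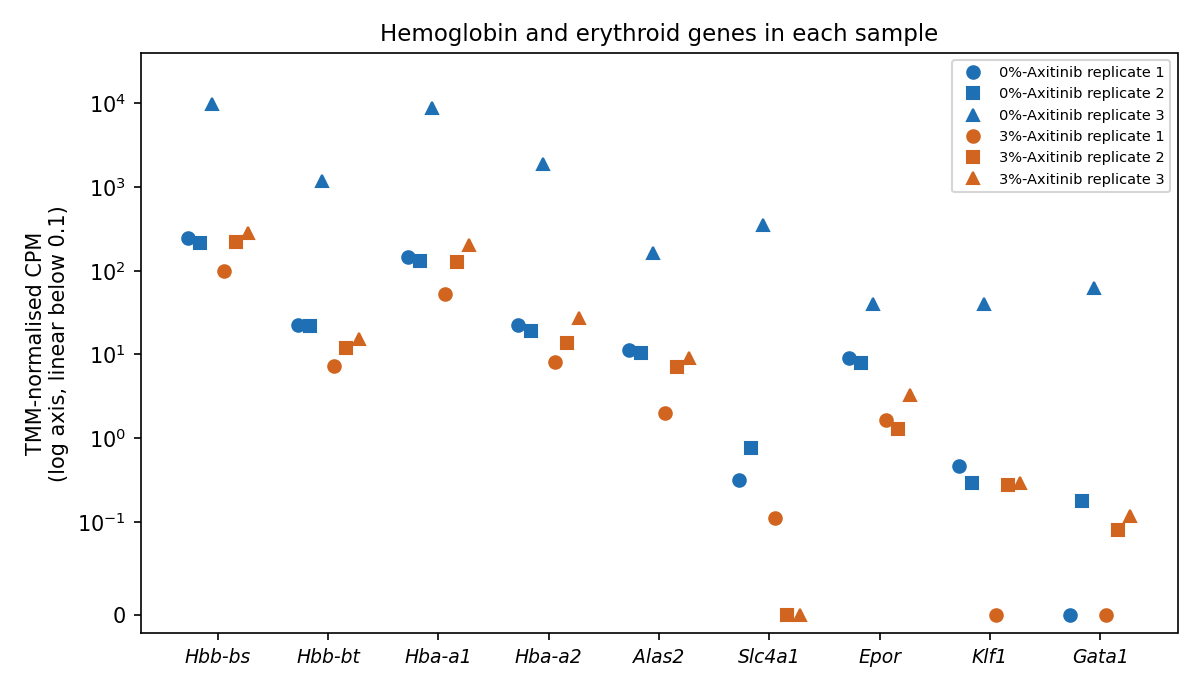
TMM-normalised CPM of the 9 genes (x axis) on a log axis that is linear below 0.1, with 1 point per sample, 0%-Axitinib in blue and 3%-Axitinib in orange, and the replicate number shown by circle (1), square (2) and triangle (3). The blue triangle, 0%-Axitinib replicate 3, is the highest point for each of the 9 genes, from 9950 CPM for Hbb-bs to 39.8 CPM for Klf1.

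Hbb-bs, which encodes the major adult beta-globin of the reference strain, had 244, 212 and 9950 CPM in 0%-Axitinib replicates 1, 2 and 3, and 98.2, 221 and 280 CPM in 3%-Axitinib replicates 1, 2 and 3. The groups overlapped, and the value of 0%-Axitinib replicate 3 was 35.6 times the next highest. Its log2 fold change was -4.12 (standard error 1.57, n = 3 per group) and -0.19 (standard error 0.42) without 0%-Axitinib replicate 3. Standard errors here and below are approximate, since they were worked back from the test statistic of the fit. No test of the members is read from them. Hba-a1, an alpha-globin gene, had 146, 130 and 8860 CPM in the 0%-Axitinib group and 52.9, 127 and 203 CPM in the 3%-Axitinib group. It also overlapped between groups, with a log2 fold change of -4.58 (standard error 1.75) that was -0.11 (standard error 0.51) without 0%-Axitinib replicate 3. Hba-a2, the second alpha-globin gene, had 22.4, 19.2 and 1880 CPM in the 0%-Axitinib group and 8.14, 13.8 and 27.2 CPM in the 3%-Axitinib group. The groups overlapped here too, and the log2 fold change of -5.28 (standard error 1.89) was -0.34 (standard error 0.47) without 0%-Axitinib replicate 3.

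Hbb-bt, the second adult beta-globin gene, differed from the other globin genes in that its groups were apart. It had 22.7, 21.6 and 1190 CPM in the 0%-Axitinib group and 7.26, 11.9 and 15.3 CPM in the 3%-Axitinib group. On the log2 scale the difference was -5.16 (standard error 1.69), and -0.94 (standard error 0.32) without 0%-Axitinib replicate 3. Of the 9 members, 6 passed the expression filter (the 4 globin genes, Alas2 and Epor), and in 3 of these, Hbb-bt, Alas2 and Epor, every 3%-Axitinib sample was below every 0%-Axitinib sample. Over all tested genes this held for 16.6%, and the opposite order for 14.7%. Because the members were chosen from the same libraries, nothing is read from that count.

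The make-up of the hemoglobin reads differed between samples as well as their amount. Alpha-globin genes gave 38.7% and 38.9% of hemoglobin reads in 0%-Axitinib replicates 1 and 2, 49.1% in replicate 3, and 36.7%, 37.6% and 43.8% in the 3%-Axitinib replicates 1 to 3. The share in 0%-Axitinib replicate 3 (exact 95% interval 48.9% to 49.2%) was above the interval of every other sample, of which the highest was that of 3%-Axitinib replicate 3 (42.8% to 44.9%). Hbb-bt gave 8.51%, 9.25% and 10.7% of the beta-globin reads in the 0%-Axitinib group and 6.88%, 5.12% and 5.20% in the 3%-Axitinib group. Every 3%-Axitinib share was below every 0%-Axitinib share, although the interval of 3%-Axitinib replicate 1 (5.36% to 8.67%) reached into those of 0%-Axitinib replicates 1 (7.76% to 9.31%) and 2 (8.37% to 10.2%). Hba-a2 gave 13.4%, 12.9% and 17.5% of the alpha-globin reads in the 0%-Axitinib group and 13.3%, 9.79% and 11.8% in the 3%-Axitinib group, again highest in 0%-Axitinib replicate 3. These shares were taken within a library and do not depend on its scaling.

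**Figure D2:**
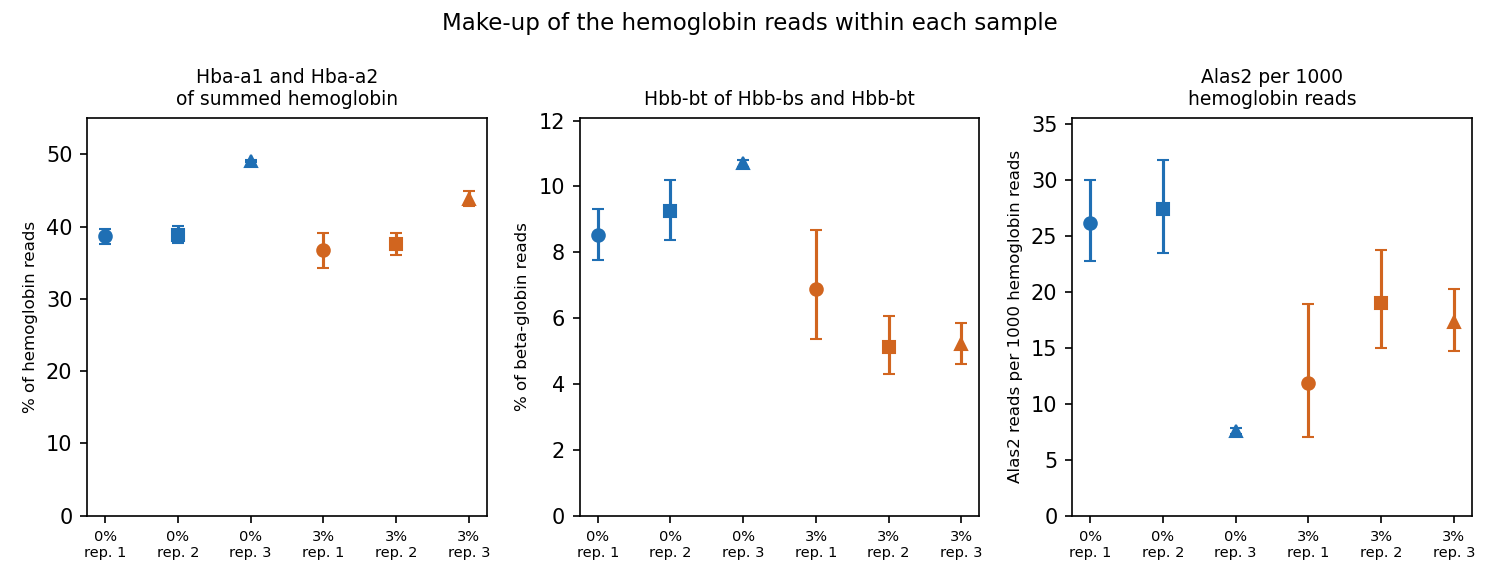
Make-up of the hemoglobin reads in each of the 6 samples (x axis), with exact 95% binomial intervals as bars: alpha-globin reads as a percentage of hemoglobin reads, Hbb-bt as a percentage of beta-globin reads, and Alas2 reads per 1000 hemoglobin reads. 0%-Axitinib replicate 3 has the highest alpha-globin share (49.1%) and the fewest Alas2 reads per 1000 hemoglobin reads (7.52).

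The split between paired globin genes is uncertain. The longest coding transcripts of Hba-a1 (699 bases) and Hba-a2 (554 bases) share an identical stretch of 415 bases, and those of Hbb-bs (628 bases) and Hbb-bt (703 bases) share one of 430 bases. Of all stretches of 100 bases in Hba-a2, 74.5% occur without a mismatch in Hba-a1, and of those in Hbb-bt, 54.8% occur in Hbb-bs. Reads that mapped to several places were not counted on genes, and they made up between 2.71% (3%-Axitinib replicate 1) and 6.65% (0%-Axitinib replicate 3) of a library. The mice were BALB/c and the reference genome is that of C57BL/6J, strains known to carry different haplotypes of the beta-globin locus, so the reads were assigned to the nearest gene model. How this moved the split was not tested.

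The hemoglobin genes sit in clusters. In GRCm38, Hbb-bs (chr7:103826534-103828096) and Hbb-bt (chr7:103812524-103813996) lie on the minus strand of chromosome 7, and Hba-a1 (chr11:32283511-32284465) and Hba-a2 (chr11:32296489-32297298) on the plus strand of chromosome 11. The 4 genes were each highest in 0%-Axitinib replicate 3 and lowest in 3%-Axitinib replicate 1. The 150 bases before their RefSeq starts are therefore shown, from RefSeq on GRCm38.p6, each 5′ to 3′ on the strand of its gene. The RefSeq starts lie inside the GENCODE genes given above, so the windows of Hbb-bs and Hba-a1 lie within those genes and the windows of Hbb-bt and Hba-a2 overlap theirs. Capitals mark CACCC, the core letters bound by KLF1 and related factors, and CCAAT, on either strand.
Hbb-bs chr7:103827929-103828078: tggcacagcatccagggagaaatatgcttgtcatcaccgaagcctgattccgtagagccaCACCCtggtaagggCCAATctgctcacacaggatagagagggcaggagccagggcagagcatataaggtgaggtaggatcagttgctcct
Hbb-bt chr7:103813924-103814073: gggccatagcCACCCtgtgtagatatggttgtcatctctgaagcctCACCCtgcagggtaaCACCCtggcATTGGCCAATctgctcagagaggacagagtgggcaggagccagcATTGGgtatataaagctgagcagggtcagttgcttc
Hba-a1 chr11:32283522-32283671: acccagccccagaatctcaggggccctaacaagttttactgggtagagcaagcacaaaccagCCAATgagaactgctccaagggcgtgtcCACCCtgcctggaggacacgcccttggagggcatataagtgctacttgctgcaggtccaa
Hba-a2 chr11:32296342-32296491: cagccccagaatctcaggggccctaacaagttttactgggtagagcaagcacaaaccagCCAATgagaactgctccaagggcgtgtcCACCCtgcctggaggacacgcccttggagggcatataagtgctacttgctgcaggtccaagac

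The windows of Hba-a1 and Hba-a2 share a stretch of 147 bases, and the longest stretch shared by those of Hbb-bs and Hbb-bt is 14 bases. Within 250 bases before the start, CACCC was found 1 time at Hbb-bs, 3 times at Hbb-bt and 2 times each at Hba-a1 and Hba-a2, and CCAAT 1 time at Hbb-bs, Hba-a1 and Hba-a2 and 3 times at Hbb-bt, where a pair of matches on opposite strands lie side by side. Of all 32851 promoters searched, 52% hold CACCC, 33.8% hold CCAAT and 9.99% hold AGATAA, 1 form of the letters read by GATA factors. Other forms of these letters were not searched. RefSeq windows were matched for 8 of the 9 members, without Slc4a1. CACCC occurred in each of these 8, and AGATAA at Hbb-bs, Alas2 and Epor. A match is a description of the letters and not a binding site.

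Alas2 encodes the erythroid enzyme of the initial step of heme synthesis. It had 11.4, 10.5 and 164 CPM in 0%-Axitinib replicates 1, 2 and 3, and 1.98, 7.11 and 9.09 CPM in 3%-Axitinib replicates 1, 2 and 3. The groups were apart, with a narrow gap between 9.09 and 10.5 CPM, and 0%-Axitinib replicate 3 was 14.5 times above the next sample. The log2 fold change was -3.34 (standard error 1.21), and -0.84 (standard error 0.57) without 0%-Axitinib replicate 3. Relative to hemoglobin, Alas2 was lowest where hemoglobin was highest: there were 26.2, 27.4 and 7.52 Alas2 reads per 1000 hemoglobin reads in the 0%-Axitinib group and 11.9, 19.0 and 17.3 in the 3%-Axitinib group. The interval of 0%-Axitinib replicate 3 (7.25 to 7.79) was below those of the other samples except that of 3%-Axitinib replicate 1 (7.03 to 18.9). Alas2 (chrX:150547375-150570638, plus strand) overlaps Apex2 and Mir3620 on the other strand, and whether counting used the strand is not given in the sources used here, so some of its reads may belong to these genes.

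Slc4a1, Klf1 and Gata1 were expressed in 0%-Axitinib replicate 3 and had at most 13 reads each in any of the other 5 libraries. Slc4a1, band 3 of the red cell membrane, had 6449 reads in 0%-Axitinib replicate 3, 6 and 13 reads in replicates 1 and 2, and 1, 0 and 0 reads in the 3%-Axitinib group. Its groups were apart with and without 0%-Axitinib replicate 3. Gata1, a transcription factor needed for red cells and megakaryocytes, had 1146 reads in 0%-Axitinib replicate 3, 0 and 3 in replicates 1 and 2, and 0, 1 and 2 in the 3%-Axitinib group. Klf1, which activates the adult beta-globin genes, had 732 reads in 0%-Axitinib replicate 3, 9 and 5 in replicates 1 and 2, and 0, 3 and 5 in the 3%-Axitinib group. None of the 3 passed the expression filter, which asks for reads in at least as many samples as a group holds, and no fold change is given for them. Gata1 had at most 3 reads in each of the 5 other libraries. Klf1 differed between the groups without 0%-Axitinib replicate 3 by no more than a few reads, from 0.292 and 0.47 CPM to 0, 0.273 and 0.289 CPM. In reads of Klf1 and Gata1 per 1000 hemoglobin reads, 0%-Axitinib replicate 3 had 4.66, the other 0%-Axitinib samples 1.08 and 1.22, and the 3%-Axitinib samples 0, 0.975 and 0.771. Hemoglobin was therefore measured well above the limit of detection in 5 libraries in which Gata1 was not detected above it, and together with Gata1, Klf1 and Slc4a1 in 1 library.

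Epor, the erythropoietin receptor, did not follow the other precursor genes. It had 9.14, 7.81 and 40.1 CPM in 0%-Axitinib replicates 1, 2 and 3 and 1.65, 1.28 and 3.24 CPM in 3%-Axitinib replicates 1, 2 and 3. The groups were apart, and 0%-Axitinib replicate 3 was 4.39 times above the next sample, the smallest such ratio of the 9 members. The log2 fold change was -3.18 (standard error 0.77), and it was -2.02 (standard error 0.45) without 0%-Axitinib replicate 3, where the other members that passed the filter lay between -0.94 and -0.11. Epor transcripts are also known from cells other than red cell precursors, endothelial cells among them.

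Levels of different genes were compared per kilobase of the longest coding transcript. In 0%-Axitinib replicate 1 the order was Hbb-bs (388 CPM per kilobase), Hba-a1 (208), Hba-a2 (40.5), Hbb-bt (32.2), Alas2 (5.59), Epor (5.19), Klf1 (0.307), Slc4a1 (0.0689) and Gata1 (0). In 0%-Axitinib replicate 3 it was Hbb-bs (15800 CPM per kilobase), Hba-a1 (12700), Hba-a2 (3390), Hbb-bt (1700), Alas2 (80.7), Slc4a1 (77.1), Gata1 (32.7), Klf1 (26) and Epor (22.8). In 3%-Axitinib replicate 3 it was Hbb-bs (445 CPM per kilobase), Hba-a1 (291), Hba-a2 (49), Hbb-bt (21.8), Alas2 (4.46), Epor (1.84), Klf1 (0.189), Gata1 (0.0609) and Slc4a1 (0). The 5 leading genes thus kept 1 order in these 3 samples, while Epor moved from above Klf1, Gata1 and Slc4a1 to below them in 0%-Axitinib replicate 3. Hba-a2 and Hbb-bt are neighbours in that order whose split from their partners is uncertain.

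Other genes of the red cell were taken from lists, and tested with edgeR's quasi-likelihood test over all 15257 genes with Benjamini-Hochberg adjustment. At an adjusted p of at most 0.05, 1 gene of all tested was called (0.00655%) and none of the 151 tested list genes, whose lowest adjusted p was 0.0965. By other counts on the same list genes, 67 were at an unadjusted p of 0.05 or less, limma-voom called 0 and DESeq2's Wald test called 46. Over all tested genes, 23.5% were at that unadjusted p and DESeq2's Wald test called 12.9%. The Wald test gave no adjusted p for some list genes, Rhd, Ermap, Nfe2 and Myb among them. The study's criterion, read as a fold change of at least 1.5 with an unadjusted p of at most 0.05, was met by 11.7% of all tested genes as lower and by 9.54% as higher in the 3%-Axitinib group, and the log2 fold changes of all tested genes had a median of -0.03. Without 0%-Axitinib replicate 3, 15690 genes were tested, 3.89% had an adjusted p of at most 0.05 as lower and 4.09% as higher, and the median was 0.02. That library was left out after its values were seen, and the 0%-Axitinib group then held only replicates 1 and 2. Calls without it are therefore a description. For these calls, 3 of 3 samples means the 3%-Axitinib samples against those 0%-Axitinib samples.

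The red cell membrane and late erythroid list showed the same single library. Of its 18 genes, 10 had too few reads outside 0%-Axitinib replicate 3 to be tested, among them 9 genes described next: Rhag, Kel, Epb42, Car1, Hemgn, Tspo2, Trim10, Trim58 and Cldn13, which are named because they were left out of the test, after their values were seen. These 9 had between 26 and 1233 reads in that library and 23 reads in all, at most 6 per gene and sample, in the other 5 together. Epb42, Tspo2 and Cldn13 had no read in any of the other 5 libraries, against 380, 220 and 783 reads in 0%-Axitinib replicate 3. The summed level of the list was 145, 143 and 1130 CPM in the 0%-Axitinib group and 216, 176 and 197 CPM in the 3%-Axitinib group. Its most abundant gene was Epb41, a membrane skeleton protein found in many cells.

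Of the 8 tested genes of that list, 4 met the criterion as lower, and the median log2 fold change was -1.63, which was 0.42 without 0%-Axitinib replicate 3. Rhd, of the Rh blood group, had 1.1, 1.98 and 75.6 CPM in the 0%-Axitinib group and 0.55, 0.911 and 1.97 CPM in the 3%-Axitinib group (log2 fold change -4.45, edgeR adjusted p = 0.176, and -0.38 without 0%-Axitinib replicate 3). Ermap, a red cell adhesion protein, had 0.574, 0.233 and 71.9 CPM against 0.77, 0.82 and 0.521 CPM, and its log2 fold change went from -5.12 (edgeR adjusted p = 0.197) to 0.75 without 0%-Axitinib replicate 3. Epb41 had 50.6, 73.9 and 139 CPM against 36, 34.8 and 39 CPM, with a log2 fold change of -1.26 (edgeR adjusted p = 0.123) and -0.77 without that library. Mgst3, a glutathione transferase, had 32.8, 33.2 and 65.3 CPM against 62.6, 68.5 and 70.5 CPM. Its log2 fold change of 0.62 became 1.02 without 0%-Axitinib replicate 3 (edgeR adjusted p = 0.0379, higher in 3 of 3 samples) and was the only edgeR call of this list there. With all samples the groups of Mgst3 overlapped. With all samples, DESeq2's Wald test called 1 gene of the list, Epb41, as lower, and gave no adjusted p for Rhd and Ermap.

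The other globin genes had few reads, apart from Hbq1b in 0%-Axitinib replicate 3. Hbq1b, a theta-globin gene, had 132 reads in 0%-Axitinib replicate 3, 3 in 3%-Axitinib replicate 3 and 0 elsewhere, and Hbq1a had 10 reads in 0%-Axitinib replicate 3 and at most 2 in any other sample. Among the embryonic genes, Hbb-y had 4 reads and Hbb-bh2 had 1 read, both in 0%-Axitinib replicate 3. Hbb-bh1 had 5 reads and Hba-x had 3 reads in 3%-Axitinib replicate 3, and Hbb-bh1 had 1 read in 3%-Axitinib replicate 1. None of these genes was tested.

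Erythroid transcription factors and their partners were mostly highest in 0%-Axitinib replicate 3, in 13 of 15 tested genes against 28.3% of all tested genes. They differed in how far their log2 fold changes moved without it. Of 15 tested genes, 7 met the criterion as lower and 0 as higher, and the median log2 fold change was -1.05, against -0.38 without 0%-Axitinib replicate 3. Nfe2, a factor of red cells and megakaryocytes, had 0.94, 0.641 and 183 CPM in the 0%-Axitinib group and 0.99, 0.911 and 0.695 CPM in the 3%-Axitinib group, and its log2 fold change went from -6.16 (edgeR adjusted p = 0.168) to 0.11 without that library. Myb, a factor of blood progenitors, had 0.887, 1.4 and 76.8 CPM against 0.44, 0 and 0 CPM (-7.74, edgeR adjusted p = 0.133). Its reads in the 3%-Axitinib group were 4, 0 and 0, and its log2 fold change was -11.74 without 3%-Axitinib replicate 1. Bcl11a, a repressor of embryonic globin genes, had 0.47, 1.05 and 13.2 CPM against 0.66, 0 and 0.232 CPM (-4.09, edgeR adjusted p = 0.179). Both had log2 fold changes closer to 0 without 0%-Axitinib replicate 3, of -3.20 for Myb and -1.41 for Bcl11a.

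Tal1, which acts with GATA1 and is also known from endothelial cells, had 10.7, 11 and 61.1 CPM in the 0%-Axitinib group and 1.76, 2.82 and 3.01 CPM in the 3%-Axitinib group. On the log2 scale the difference was -3.43 (standard error 0.79, edgeR adjusted p = 0.0973), and -2.09 (standard error 0.32, edgeR adjusted p = 0.0379) without 0%-Axitinib replicate 3. Lmo2, a partner of TAL1, had 103, 130 and 144 CPM against 53.8, 50.9 and 77.5 CPM, with a log2 fold change of -1.05 (edgeR adjusted p = 0.0973) that was -0.94 without that library. Gata2, which precedes GATA1 in blood progenitors, had 7.15, 5.13 and 27.2 CPM against 1.65, 2.73 and 5.91 CPM (-1.92, edgeR adjusted p = 0.193, and -0.82 without that library), and its groups overlapped. Ikzf1, a factor of blood cells, had 35.9, 42.7 and 134 CPM against 18.7, 22.9 and 18.9 CPM, and its log2 fold change of -1.81 was -0.97 (edgeR adjusted p = 0.0399) without 0%-Axitinib replicate 3. Ldb1, the most abundant gene of the list, had 114, 103 and 203 CPM against 184, 214 and 207 CPM (0.52, edgeR adjusted p = 0.321). Without that library its log2 fold change was 0.89 (edgeR adjusted p = 0.0426, higher in 3 of 3 samples), while with all samples its groups overlapped.

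Of 10 tested genes of erythropoietin signalling, 4 met the criterion as lower and 1 as higher, and the median log2 fold change was -0.26 that was -0.25 without 0%-Axitinib replicate 3. No read was counted on Epo, the gene of erythropoietin itself, in any sample. Kit, the receptor of stem cell factor, had 13.2, 16.2 and 46.2 CPM in the 0%-Axitinib group and 0.99, 1.55 and 2.72 CPM in the 3%-Axitinib group, which gave -3.81 on the log2 scale (standard error 0.64, edgeR adjusted p = 0.0965). Kitl, stem cell factor, had 44.1, 46.4 and 39.8 CPM against 13.5, 12.2 and 14.2 CPM, a log2 fold change of -1.71 (standard error 0.18, edgeR adjusted p = 0.0965). Without 0%-Axitinib replicate 3 both were called as lower, Kit at -3.02 and Kitl at -1.77 (edgeR adjusted p = 0.0379 for each, lower in 3 of 3 samples). Kitl was thus the gene of the pair that was not highest in 0%-Axitinib replicate 3. Stat5b, which carries the signal of the receptor to the nucleus, had a log2 fold change of -0.73 (edgeR adjusted p = 0.105, and -0.62 without that library), and Ptpn6, a phosphatase that damps it and the most abundant gene of the list, one of -0.94 (edgeR adjusted p = 0.178, and -0.47 without it). Socs3, an inhibitor of cytokine receptors, had 60.9, 31.1 and 36.2 CPM against 184, 117 and 55.4 CPM (1.47, edgeR adjusted p = 0.138, and 1.36 without 0%-Axitinib replicate 3).

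Each of the 8 other enzymes of heme synthesis was highest in 0%-Axitinib replicate 3. Their summed level was 334, 341 and 1060 CPM in the 0%-Axitinib group and 335, 351 and 395 CPM in the 3%-Axitinib group. The median log2 fold change was -0.69, against 0.12 without 0%-Axitinib replicate 3, and 1 of the 8 met the criterion. Alad had 41.9, 38.4 and 296 CPM against 47.7, 50.7 and 58.9 CPM, and its log2 fold change went from -1.26 to 0.38 without that library. Uros, Ppox and Fech, each below 0 with all samples, were at 0.01, 0.14 and 0.10 without it. Cpox met the criterion, with 25.1, 27.1 and 42.4 CPM against 15.2, 16.8 and 12 CPM (log2 fold change -1.11, edgeR adjusted p = 0.102, and -0.84 without 0%-Axitinib replicate 3). Alas1, the enzyme of the initial step outside red cells and the most abundant of the list, had a log2 fold change of -0.76 (edgeR adjusted p = 0.265, and -0.34 without that library). Urod had 38.7, 37.9 and 97.6 CPM against 59.3, 68.4 and 61.4 CPM, a log2 fold change of 0.12 that was -0.01 with scaling by total counts and 0.71 (edgeR adjusted p = 0.0432) without 0%-Axitinib replicate 3. Its groups overlapped with all samples.

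Iron genes and genes that clear hemoglobin did not share 1 pattern. Of 12 tested genes of iron uptake, storage and export, 3 met the criterion as lower, and the median log2 fold change was -0.45, or -0.35 without 0%-Axitinib replicate 3. Slc25a37, the mitochondrial iron importer of red cell precursors, had 45.9, 52.2 and 359 CPM in the 0%-Axitinib group and 43.3, 33.3 and 37.6 CPM in the 3%-Axitinib group (-2, edgeR adjusted p = 0.195, and -0.37 without that library). Slc40a1, the iron exporter ferroportin, had 10.5, 17.3 and 112 CPM against 0.77, 5.01 and 3.36 CPM, a log2 fold change of -3.91 (edgeR adjusted p = 0.116) that was -2.17 without 0%-Axitinib replicate 3. Ireb2, a sensor of iron, had a log2 fold change of -0.79 (edgeR adjusted p = 0.0989, and -0.65 without that library). Fth1, ferritin heavy chain and the most abundant of the list, was lowest in 0%-Axitinib replicate 3, with 4470, 5460 and 2160 CPM against 7160, 8640 and 9830 CPM (1.08, edgeR adjusted p = 0.213, and 0.78 without it).

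Of 10 tested genes of hemoglobin and heme clearance, 1 met the criterion as lower and 1 as higher, and the median log2 fold change was 0.07, or -0.10 without 0%-Axitinib replicate 3. Spic, a factor of the macrophages that recycle red cells, had 2.92, 2.39 and 15.3 CPM in the 0%-Axitinib group and 0.88, 1.28 and 2.49 CPM in the 3%-Axitinib group (-2.12, edgeR adjusted p = 0.19, and -0.75 without that library). Hpx, which binds free heme, had 1.1, 1.05 and 1.63 CPM against 2.75, 3.1 and 3.71 CPM (1.34, edgeR adjusted p = 0.123, and 1.56 without it). Lrp1, the receptor for the complex of heme and hemopexin and the most abundant of the list, was lowest in 0%-Axitinib replicate 3, with 519 CPM against at least 1840 CPM in each other sample.

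Markers of other marrow cells were high in the same library as Gata1, Klf1 and Slc4a1. The 10 genes of marrow granulocyte precursors summed to 14.7, 6.12 and 20600 CPM in 0%-Axitinib replicates 1, 2 and 3 and to 25.2, 6.65 and 8.34 CPM in the 3%-Axitinib group. Of 7 tested, 6 met the criterion as lower (Ngp, Camp, Ltf, Mpo, Prtn3 and Ctsg) and Cebpe did not, and the median log2 fold change of -8.44 was 0.57 without 0%-Axitinib replicate 3. Ngp, a granule protein and the most abundant of the list, had 3.65, 1.17 and 7900 CPM against 3.85, 0.547 and 1.68 CPM. The 7 genes of mature neutrophils, which also circulate in blood, summed to 128, 114 and 19000 CPM against 263, 166 and 121 CPM, with S100a9 as the most abundant. Retnlg and S100a9 met the criterion as lower, Il1r2 had the highest log2 fold change (0.47, and 0.35 without 0%-Axitinib replicate 3), and the median of -3.92 was 0.61 without that library.

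The 10 genes of marrow B cell precursors summed to 56.9, 34.5 and 234 CPM in the 0%-Axitinib group and 46, 53.8 and 40.3 CPM in the 3%-Axitinib group. Ebf1, the most abundant, is also expressed by fat and stromal cells and had 53, 27.3 and 38.8 CPM against 43.3, 50.6 and 39 CPM. Of 3 tested genes, Cd79a and Cd79b met the criterion as lower, and the median of -4.26 was -1.45 without 0%-Axitinib replicate 3. Dntt, Rag1 and Igll1, which mark B cell precursors and are named after their values were seen, had 110, 65 and 85 reads in 0%-Axitinib replicate 3 and 0 in the other 5 libraries. Of 12 genes of megakaryocytes and platelets, 7 were tested and 1 met the criterion as lower, and the list summed to 293, 208 and 1140 CPM against 288, 293 and 292 CPM. Its most abundant gene, Pf4, had 95.3, 45.6 and 291 CPM against 152, 220 and 149 CPM, while Ppbp had 1.41, 1.28 and 264 CPM against 2.2, 3.37 and 1.16 CPM. The median of -2.32 was 0.64 without 0%-Axitinib replicate 3. How far other marrow cells account for the erythroid reads of this library was not tested.

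**Figure D3:**
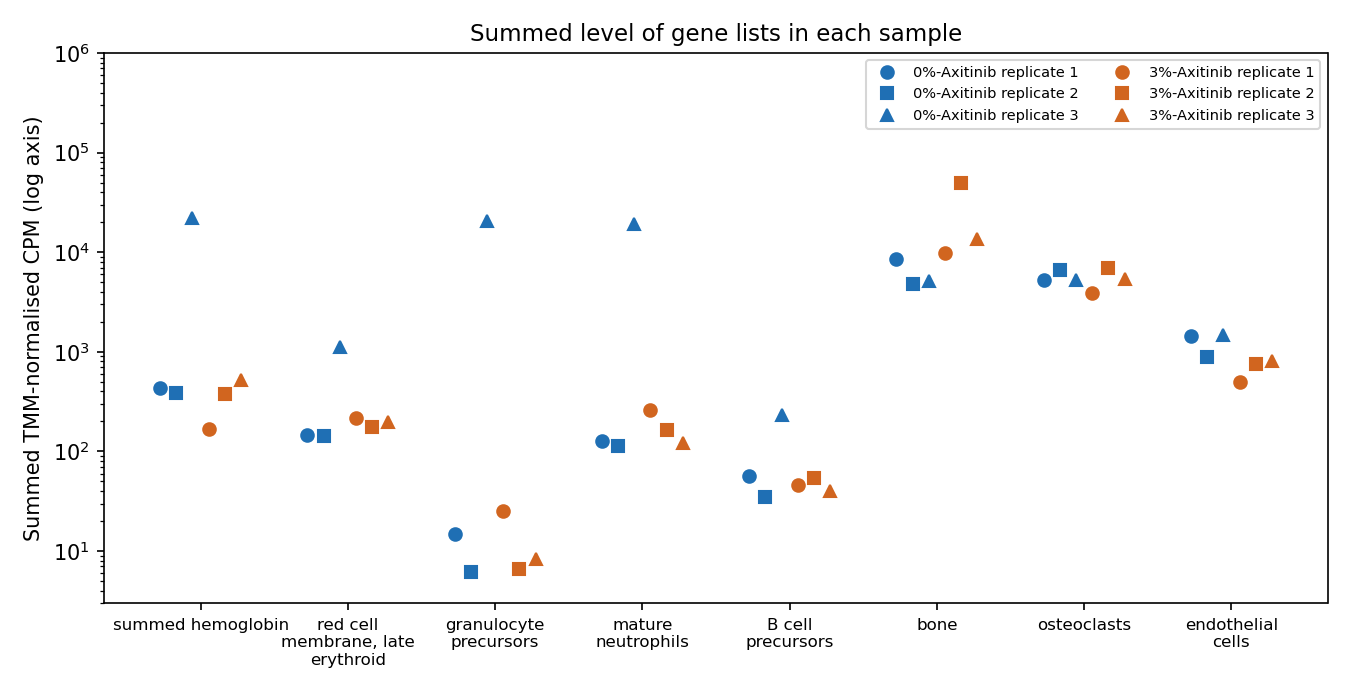
Summed TMM-normalised CPM (log y axis) of hemoglobin and of 7 gene lists (x axis), with 1 point per sample, 0%-Axitinib in blue and 3%-Axitinib in orange, and circle, square and triangle for replicates 1, 2 and 3. 0%-Axitinib replicate 3 is above the other samples for hemoglobin (21900 CPM) and for the red cell, granulocyte, neutrophil and B cell lists, and is not so for bone (5170 CPM) or osteoclasts (5300 CPM).

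Bone genes were highest in a different library from the marrow genes when summed. The bone list summed to 8530, 4780 and 5170 CPM in the 0%-Axitinib group and 9790, 49700 and 13700 CPM in the 3%-Axitinib group, with Col1a1 as its most abundant gene. Of 12 tested genes, 6 met the criterion as higher (Ibsp, Mepe, Sost, Alpl, Spp1 and Col1a1) and 0 as lower, and the median of the list was 1.62, or 2.11 without 0%-Axitinib replicate 3 and 0.70 without 3%-Axitinib replicate 2. Without 0%-Axitinib replicate 3, Mepe (log2 fold change 4.59, edgeR adjusted p = 0.0461) and Sost (3.99, edgeR adjusted p = 0.0406) were called as higher, each in 3 of 3 samples. The sample with the highest bone sum, 3%-Axitinib replicate 2, had 0 reads of Slc4a1, 1 read of Gata1 and 3 reads of Klf1. Within the 0%-Axitinib group, replicate 3 was the highest in 10 of the 12 tested bone genes, against 43.6% of all tested genes, and 2 of these were highest there over all 6 samples. Bglap, osteocalcin, had 5.32, 1.22 and 111 CPM against 0.55, 26.4 and 21.5 CPM, and Bglap2, named after its values were seen, had 5.27, 2.45 and 58.2 CPM against 0.55, 17.8 and 16.6 CPM. The 8 osteoclast genes summed to 5310, 6700 and 5300 CPM against 3870, 6900 and 5390 CPM. None of them met the criterion, the median log2 fold change was -0.72, or -0.46 without that library, -1.49 without 3%-Axitinib replicate 2 and -0.20 without 3%-Axitinib replicate 1, and Ctsk was the most abundant and Dcstamp had the lowest log2 fold change (-1.17, and -1 without 0%-Axitinib replicate 3). Atp6v0d2, named after its values were seen, was called as lower without 0%-Axitinib replicate 3 (-1.53, edgeR adjusted p = 0.049, lower in 3 of 3 samples). With all samples the groups of Atp6v0d2 overlapped. Reads of rabbit origin in these genes were not analysed here.

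Most vessel genes had lower values in the 3%-Axitinib group with and without the library that stood apart, and with all samples edgeR called 0 of the 15 at an adjusted p of 0.05 while DESeq2's Wald test called 10. The 15 endothelial genes summed to 1450, 879 and 1480 CPM in the 0%-Axitinib group and 494, 746 and 818 CPM in the 3%-Axitinib group. Of the 15 tested, 12 met the criterion as lower and 0 as higher, in 11 every 3%-Axitinib sample was below every 0%-Axitinib sample, and the median log2 fold change was -1.31, or -1.29 without 0%-Axitinib replicate 3. Cdh5, the cadherin of endothelial junctions, had 151, 117 and 144 CPM against 15.4, 25.8 and 38.7 CPM (log2 fold change -2.37, standard error 0.35, edgeR adjusted p = 0.0965, and -2.33 without 0%-Axitinib replicate 3). Without 0%-Axitinib replicate 3, Cdh5, Pecam1, Kdr and Cldn5 were called as lower (edgeR adjusted p between 0.0379 and 0.0467). The most abundant gene, Plvap, had a log2 fold change of -0.39 (-0.36 without 0%-Axitinib replicate 3), and Ramp2 had the highest (0.80, and 0.76 without it). Per unit of the endothelial sum, hemoglobin CPM was 0.3, 0.436 and 14.8 in the 0%-Axitinib group and 0.337, 0.501 and 0.642 in the 3%-Axitinib group. The part of endothelial cells in the values of Epor, Tal1, Lmo2 and Kit was not tested.

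The other tissues in the samples also differed between libraries. Skeletal muscle genes summed to 131, 6.18 and 10.5 CPM in the 0%-Axitinib group and 13500, 18.6 and 7380 CPM in the 3%-Axitinib group, with Acta1 as the most abundant gene and 9 of 11 tested genes meeting the criterion as higher. Their median log2 fold change was 7.35, or 6.76 without 0%-Axitinib replicate 3. Genes of subcutaneous tissue and fibroblasts, the labelled tissue, summed to 21200, 13000 and 8380 CPM against 17300, 41200 and 17600 CPM, lowest in 0%-Axitinib replicate 3. Of 11 tested, Fabp4 met the criterion as lower and Fbln1 as higher, and the median was 0.26, or -0.04 without that library, where Fabp4 was called as lower (-1.06, edgeR adjusted p = 0.0379, lower in 3 of 3 samples). The keratin genes Krt5 and Krt14 of this list, named after their values were seen, had 1925 and 3044 reads in 0%-Axitinib replicate 2 and at most 7 in any other library. The cartilage list summed to 359, 213 and 166 CPM against 309, 1240 and 475 CPM, with Comp as its most abundant gene, 5 of 7 tested genes meeting the criterion as higher and a median of 2.53, or 3.14 without that library. The share of muscle or cartilage in the hemoglobin values was not tested. BEC was made of rabbit cells, and the study states that samples were taken with murine tissue entangled. Reads of rabbit origin in the cartilage genes were not analysed here.

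The genes most like the members were sought among 14596 other genes with a mean of at least 1 CPM, by Pearson's r of log2 CPM over the 6 samples, as a description. Closest to summed hemoglobin were Tox and Ica1 (r = 0.996 each), Arhgdib (0.995), Max (0.993) and Ppp2r5a (0.992). Over the 5 samples without 0%-Axitinib replicate 3 their r lay between 0.839 and 0.925. Tox had 97 reads in 0%-Axitinib replicate 3 and at most 23 in another sample, and Ppp2r5a had 5505 and at most 2326. Closest to the mean log2 CPM of Epor, Klf1 and Gata1 were Gnaz, Trim10, Spint2, Tnfrsf13b and H2-DMa, with r between 0.997 and 0.999 over 6 samples and between 0.96 and 0.983 over 5. Trim10 was the single gene of the erythroid lists among these 10, with 929 reads in 0%-Axitinib replicate 3 and at most 6 in another sample. The values come from 6 or 5 points and are a description.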

How the data were processed

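Murine tissue around BEC was analysed in 3 samples of each group. The authors had filtered the reads with fastp, mapped them to mm10 with STAR (version 2.5.2b per the submitters' processing notes) and deposited unnormalized counts per gene. The annotation and the strand setting are not given in the sources used here. Reads on no gene (4 lines) were kept out of library sizes. The members and lists were chosen with earlier results of these data known.

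In R 4.3.3, genes were filtered with filterByExpr (minimum count 10, minimum total 15), normalized with TMM and compared between groups with the quasi-likelihood test of edgeR 4.0.16, adjusted by Benjamini-Hochberg over all tested genes. The code was also run on simulated counts. These held no library that stood apart, so they do not show how the test behaves with one. Lists are described by counts and medians, with no set test. Named genes were each member, every detected gene of the erythroid lists with 8 or fewer, otherwise the most abundant, the lowest and highest log2 fold change and those meeting the criterion, with the 5 genes most like each profile, except some genes of the lists that are not reported here. Log2 values used a prior count of 2. Standard errors were taken as the log2 fold change without its sign, divided by the square root of the quasi-likelihood F statistic. Alternatives used DESeq2 1.42.0 and limma 3.58.1. Transcript lengths and positions came from GENCODE on GRCm38 (the build of mm10). Python 3.11.15 and matplotlib 3.10.9 made the figures.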

Additional observations from a re-analysis of the deposited data

Results flagged for a closer look

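Reads that could not be mapped to the mouse genome lie outside the counts per gene. Their share was 48.4%, 29.2% and 16.8% in 3%-Axitinib replicates 1, 2 and 3, each above the highest value of the 0%-Axitinib group (14.9%, in replicate 3). With all reads of a library as the denominator, hemoglobin reads per 1000000 were 369, 318 and 15400 in the 0%-Axitinib group and 69.2, 208 and 345 in the 3%-Axitinib group. The groups overlapped with this denominator too. Where the unmapped reads came from was not tested.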

How the results depend on the processing

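Results were recomputed with DESeq2 size factors, total counts, TMM without the members and muscle genes, no filter, a filter of 10 counts in every sample, DESeq2's Wald test, limma-voom, the replicate number as a block, and each sample left out in turn. Where a value differed, the cause was not tested.

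Calls at an adjusted p of 0.05 numbered 15 with no filter, 1961 with DESeq2's Wald test, 2 with limma-voom and 2 with the block, and 0 to 1252 with a sample left out (1252 without 0%-Axitinib replicate 3). Genes meeting the criterion as lower ranged from 1308 to 2148 and as higher from 1055 to 2274 with a sample left out. Total counts moved the median log2 fold change of all genes from -0.0343 to -0.163 and the share of criterion genes that were lower from 55.1% to 71.2%.

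With a sample left out, log2 fold changes ranged from -4.67 to -0.19 (Hbb-bs), -5.71 to -0.94 (Hbb-bt), -5.14 to -0.11 (Hba-a1), -5.85 to -0.34 (Hba-a2), -3.84 to -0.84 (Alas2) and -3.68 to -2.02 (Epor), each closest to 0 without 0%-Axitinib replicate 3. The log2 ratio for summed hemoglobin ranged from -4.97 to -0.20, and was -4.69 with all reads as denominator and -4.53 with total counts. The globin genes were also closer to 0 with the block (Hbb-bs -1.93, Hbb-bt -2.64, Hba-a1 -2.09, Hba-a2 -2.38) and with limma-voom (-2.17, -2.84, -2.35 and -2.55). Alas2 was -2.45 and -2.29, and Epor -2.93 and -2.80. The replicate numbers are not known to pair the groups. Correlations of deviations from the group mean were 0.182, -0.115 and -0.174 for the same number and between -0.221 and 0.212 for unlike numbers. With so few samples these values do not settle whether the numbers pair.

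List medians with a sample left out ranged from -2.03 to 0.42 (red cell), -0.92 to 0.12 (heme synthesis), -0.16 to 0.18 (clearance), -2.82 to 0.64 (platelets), -9.26 to 0.57 (granulocyte precursors), -4.66 to 0.61 (neutrophils), -4.29 to -1.45 (B cell precursors), 0.70 to 2.11 (bone), -1.49 to -0.20 (osteoclasts), -1.61 to -1.20 (endothelial cells), -0.04 to 0.66 (subcutaneous tissue), 6.27 to 11.40 (muscle) and 1.70 to 3.14 (cartilage). No filter gave -7.62 (red cell) and -4.01 (platelets). Limma-voom gave -0.85 (platelets), -3.82 (granulocyte precursors) and -1.18 (neutrophils). The block gave -0.82, -2.35 and -0.24 for these 3 and -2.70 for B cell precursors, for which the filter of 10 counts gave 0.15.

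Single genes with the opposite sign were Urod and Ctsk (-0.01 each with total counts) and Lrp1 (0.29 with limma-voom, 0.23 with the block). With a sample left out, ranges that crossed 0 were -5.70 to 0.75 (Ermap), -6.74 to 0.11 (Nfe2), -1.69 to 0.38 (Alad), -0.88 to 0.01 (Uros), -0.11 to 0.71 (Urod), -0.23 to 0.14 (Ppox), -0.64 to 0.10 (Fech), -0.57 to 0.42 (Lrp1), -0.15 to 1.30 (Pf4), -5.91 to 0.71 (Ppbp), -5.56 to 1.65 (Cebpe), -9.02 to 1.76 (Mpo), -7.27 to 0.57 (Prtn3), -8.83 to 0.61 (Ctsg), -7.68 to 0.61 (S100a9), -8.06 to 0.49 (Retnlg), -0.09 to 0.90 (Il1r2), -0.06 to 0.42 (Ebf1), -1.84 to 2.30 (Bglap), -0.04 to 0.31 (Ctsk), -0.05 to 1.42 (Comp) and -0.45 to 0.95 (Col11a1).

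Slc4a1, Klf1, Gata1 and the other globin genes did not pass the filter and have no fold change, and leaving out a sample does not apply to hemoglobin shares of single samples. Counts of 3 or fewer, as for Gata1 in 5 libraries, are at the limit that depth sets, and a lower expression than that was not measurable.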
